A study of Homo sapiens with 6 samples.

Results

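Complement factors and the receptors for their cleavage fragments were followed in THP-1 cells, a human line grown from a monocytic leukaemia, after differentiation with PMA and in the unstimulated line. The 10 genes, of 18417 tested, were taken by name, with earlier results of these data known. They are the C1q chains C1QA, C1QB and C1QC, the central component C3, the alternative pathway genes CFB, CFD and CFP, the membrane regulator CD59, and the anaphylatoxin receptors C3AR1 and C5AR1. Where several probe sets named a gene, the brightest by its mean over the 6 arrays stood for it, and all 10 genes were measured. PMA (phorbol myristate acetate) switches on protein kinase C and is used to turn THP-1 cells into adherent, macrophage-like cells. The 3 PMA samples are THP-1 cells given 200 nM PMA for 3 days and kept for a further 3 days without it, and the 3 unstimulated samples are THP-1 cells that received none. All were grown in RPMI with 10% FBS, 2.5 mM glutamate and 0.05 mM 2-mercaptoethanol, and total RNA was hybridised to single-channel Affymetrix arrays. Whether the replicates were grown apart is not given in the labels, and the p-values therefore reflect array-to-array spread that could be technical only. All samples come from a single leukaemia line, which limits them as a model of blood monocytes and tissue macrophages.

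Complement is a cascade of plasma and cell-surface proteins that marks particles for uptake and can pierce membranes. The classical pathway starts when C1q, assembled from A, B and C chains, binds antibody or a surface. The alternative pathway amplifies deposited C3 through factor B, which the protease factor D cuts, and properdin holds the resulting convertase together. Cleavage of C3 and C5 releases anaphylatoxins, small peptides that attract and activate myeloid cells through C3AR1 and C5AR1. The liver makes most plasma complement, while macrophages make C1q, C3, factor D and properdin locally and carry the receptors.

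Values below are log2 RMA values, 1 per gene and array. Each probe set binds with its own strength, so levels of different genes are not compared with each other. Sums and averages over markers, and places against the array median or quartile, carry this limit. Bright probe sets weigh most in the linear sums. Arrays of one group correlated at 0.988 to 0.995 across probe sets (Pearson's r), and arrays of different groups at 0.958 to 0.968. PMA replicate 3 and unstimulated replicate 1 stood apart most: their median absolute offset from the mean of the other arrays of their group was 0.138 and 0.152 over all genes, against 0.112 to 0.129 on the other arrays. On PMA replicate 3, 1.99% of genes lay more than 1 log2 unit from the mean of the other PMA arrays, and on unstimulated replicate 1, 0.858% did so from the other unstimulated arrays; PMA replicate 2 had 0.983%, and the remaining arrays 0.0868% to 0.223%. Markers of the labelled cell type were read against the array median. All 9 measured monocyte and macrophage markers lay above the array median in PMA cells. On the 3 unstimulated arrays, MSR1 and CD163 lay below it. The summed linear signal of the 9 was 20497 to 22839 on PMA arrays and 17189.7 to 17439 on unstimulated arrays. Of the 9, 6 rose and LYZ, the secreted lysozyme, fell. All 5 granulocyte precursor markers fell, with a summed signal of 498 to 541 on PMA arrays and 15326 to 19643 on unstimulated arrays. Of 30 measured markers of hepatocytes, adipocytes, lymphocytes, erythroid cells, fibroblasts and endothelium, 2 rose and 1 fell. The hepatocyte genes ALB, FGB and AHSG lay below the lower quartile of all 6 arrays. APOA1 and SERPINA1 of the same list lay above the median of all 6, and SERPINA1 rose (0.89 ± 0.17, limma adjusted p = 0.0065). PAX5 (B cell), COL1A1 (fibroblast) and PECAM1 (endothelial) also lay above the median of all 6. A place above the median therefore does not by itself show a cell type.

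C5AR1, CD59 and C3 were higher in PMA-differentiated cells and CFD was lower. These 4 of 10 genes passed an adjusted p of 0.05 (limma, Benjamini-Hochberg over all genes), against 26.4% of all genes tested. The 3 that rose stand against 13.2% of all genes higher with PMA, and the 1 that fell against 13.2% lower. The split of all calls depended on the scaling: 50.1% of called genes were higher, and 61.8% when the arrays were centred on their medians, under which the calls of these 4 genes and their directions stayed. The groups did not overlap for 6 of the 10 genes, against 41.2% of all genes. The median size of the log2 change was 1.32 over the 10 genes and 0.18 over all genes. The median signed change was -0.0028 over the 10 genes and -0.028 over all genes. The figures for all genes include dim genes. Without the lowest 25% of genes, 4 of the 10 were called, against 33.8% of all genes. Without genes below the median, 5 of 6 were called, against 39.5%, but genes bright only with PMA can stay in. The 10 were chosen with earlier results of these data known, so none of these comparisons tests the list. In bulk RNA, a lower value from fewer cells that make a transcript cannot be told apart from less transcript per cell.

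**Figure D1:**
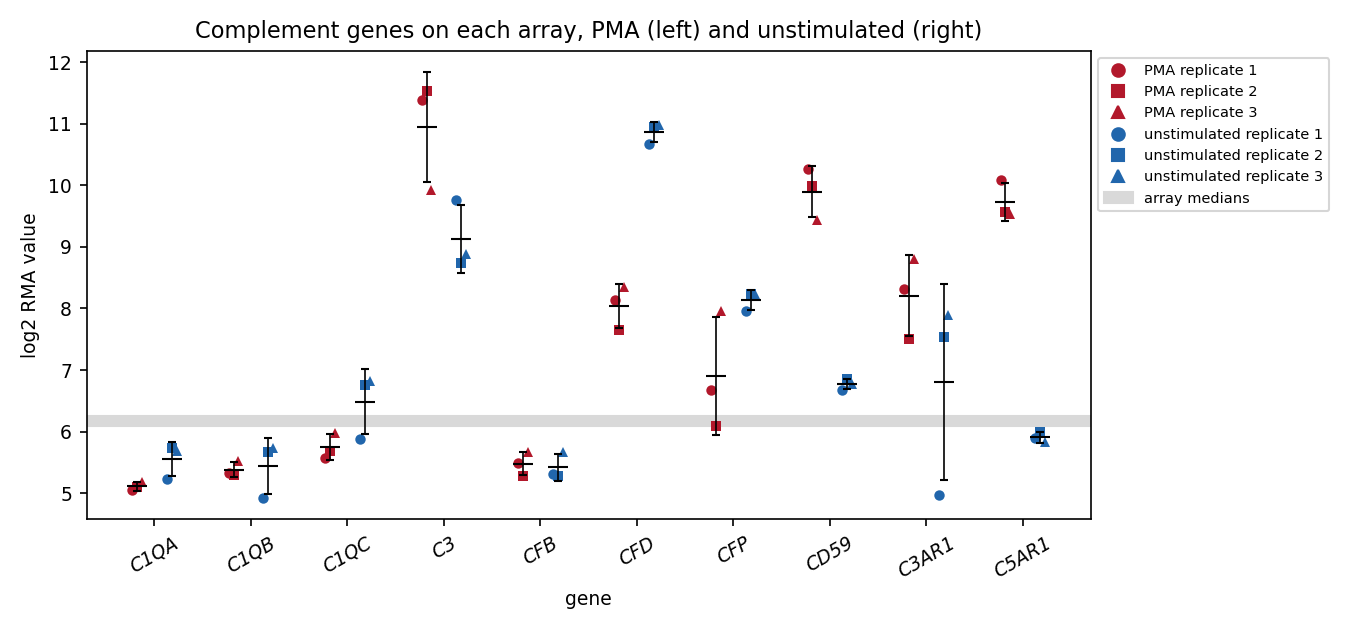
Log2 RMA value of the 10 complement genes on every array, with PMA left of unstimulated for each gene, symbols for replicates, and black bars for the mean ± SD (n = 3 each). C5AR1, CD59 and CFD separate the groups by more than 2.3 log2 units between the nearest arrays, while PMA replicate 3 (C3, CFP) and unstimulated replicate 1 (C3AR1, C1QC) lie away from their own groups.

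**Figure D2:**
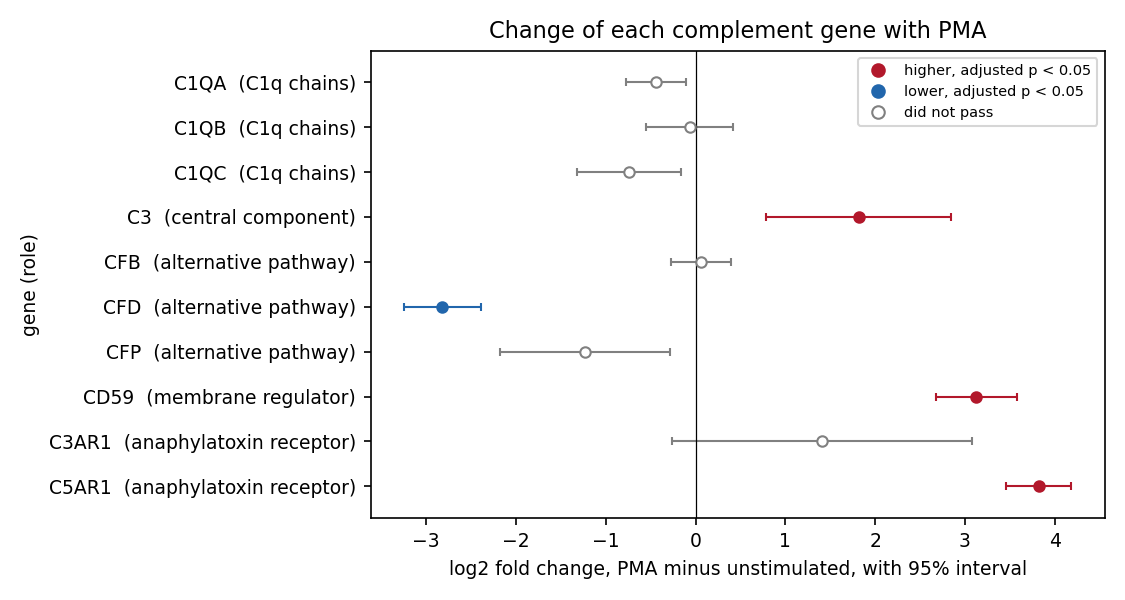
Log2 fold change, PMA minus unstimulated, with the 95% interval of the limma fit, not adjusted for the number of genes tested. Filled points passed an adjusted p of 0.05: C5AR1 at 3.82, CD59 at 3.12 and C3 at 1.82 were higher and CFD at -2.82 was lower.

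None of the 3 C1q chains passed in limma with group as the only term and equal array weights, although 2 had an unadjusted p under 0.05. With array quality weights, C1QA (-0.55, adjusted p = 0.00531) and C1QC (-1.002, adjusted p = 0.00336) fell. Their genes lie side by side on chromosome 1, in the order C1QA, C1QC, C1QB. C1QC read 5.57, 5.69 and 5.98 on the PMA arrays, against 5.88, 6.77 and 6.83 on the unstimulated arrays. Its groups overlapped through unstimulated replicate 1, whose offset from the mean of the other unstimulated arrays was -0.92. C1QA read 5.05, 5.10 and 5.19 with PMA and 5.24, 5.74 and 5.68 without. Every PMA array was below every unstimulated array, by a gap of 0.05 between the nearest. C1QB read 5.32, 5.30 and 5.52 with PMA and 4.93, 5.67 and 5.74 without, so its groups overlapped. C1QA and C1QB were below the array median on all 6 arrays, and C1QC on all 3 PMA arrays and on unstimulated replicate 1, a range in which RMA compresses differences.

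In limma with Benjamini-Hochberg adjustment, C1QC differed by -0.74 ± 0.25 (log2 fold change ± SE, n = 3 each; adjusted p = 0.0645). C1QA differed by -0.44 ± 0.14 (adjusted p = 0.0569) and C1QB by -0.07 ± 0.21 (adjusted p = 0.868), the last with a 95% interval of -0.55 to 0.42. All 3 chains were at their lowest unstimulated value on unstimulated replicate 1. Without that array C1QC fell by 1.05 (adjusted p = 0.00206) and C1QA fell by 0.60 (adjusted p = 0.0047), while C1QB stood at -0.32 (adjusted p = 0.0696). On that array the monocyte and macrophage markers averaged a log2 value of 9.18, against 9.59 and 9.60 on the other unstimulated arrays. LYZ, CD68 and SPI1 of that list were highest there, and its other measured markers lowest. The granulocyte precursor markers averaged 11.01 there, against 10.75 and 10.64. The part of these markers in the result was not tested. Without PMA replicate 3, C1QC also passed (-0.86, adjusted p = 0.0466). The direction for C1QB was not settled: it lay between 0.0071 and 0.020 when the arrays were quantile-normalized again, centred on their medians or scaled by cyclic loess.

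C3, the component on which all pathways converge, was higher with PMA, though not evenly. It read 11.38, 11.54 and 9.92 on the PMA arrays, against 9.76, 8.75 and 8.88 on the unstimulated arrays. The groups were separated by only 0.16, since PMA replicate 3 had an offset of -1.54 from the mean of the other PMA arrays and unstimulated replicate 1 one of 0.95 from the other unstimulated arrays. The mean was 10.95 ± 0.89 with PMA and 9.13 ± 0.55 without (SD, n = 3 each), a rise of 1.82 ± 0.44 on the log2 scale or 3.53-fold (limma, Benjamini-Hochberg adjusted p = 0.0191). The size of the rise depended on those arrays: it was 2.33 without PMA replicate 3 and 2.13 without unstimulated replicate 1, both past the threshold. The call was lost without PMA replicate 1 (1.60, adjusted p = 0.0766), PMA replicate 2 (1.52, adjusted p = 0.0606), unstimulated replicate 2 (1.63, adjusted p = 0.0814) or unstimulated replicate 3 (1.69, adjusted p = 0.0727).

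CFD encodes factor D, the serine protease that cleaves factor B and so starts the alternative pathway convertase. It read 8.14, 7.65 and 8.35 on the PMA arrays, against 10.67, 10.95 and 10.97 on the unstimulated arrays. Every PMA array was lower, and the nearest arrays of the groups were 2.32 apart. CFD fell by 2.82 ± 0.18 on the log2 scale, or 7.06-fold (limma, Benjamini-Hochberg adjusted p = 4.07e-05), and the change stayed between -2.97 and -2.62 when any array was left out. A larger change was seen for 1.15% of genes. CFD was still above the array median on all 3 PMA arrays.

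The gene lies on chromosome 19 next to a cluster of primary granule proteases and the related protein AZU1, in the order AZU1, PRTN3, ELANE, CFD. ELANE, neutrophil elastase, read 7.32, 7.38 and 7.62 with PMA and 12.44, 12.27 and 12.15 without, a log2 fold change of -4.85 ± 0.12 (limma adjusted p = 7.29e-07). PRTN3, proteinase 3, changed by -4.56 ± 0.21 and AZU1, azurocidin, by -4.86 ± 0.13. All 4 neighbours were therefore lower with PMA, CFD by the smallest amount. The genes that flank these 4, named after their values were seen, had smaller log2 fold changes. PLPPR3 and PTBP1 before AZU1 were at -0.92 ± 0.20 and -0.52 ± 0.12 and MED16 after CFD at -0.37 ± 0.11, all past the threshold, and R3HDM4 beyond MED16 did not pass (-0.06 ± 0.09, limma adjusted p = 0.699). AZU1, PRTN3 and ELANE are 3 of the 5 granulocyte precursor markers, whose summed signal is given above; the part of such cells in the fall of CFD was not tested. The 250 bases before the annotated start of CFD are shown as the sequence at the edge of that block, from RefSeq (GRCh38.p14, chr19:859414-859663, plus strand), with GC boxes (GGGCGG on either strand) in capitals.
CFD: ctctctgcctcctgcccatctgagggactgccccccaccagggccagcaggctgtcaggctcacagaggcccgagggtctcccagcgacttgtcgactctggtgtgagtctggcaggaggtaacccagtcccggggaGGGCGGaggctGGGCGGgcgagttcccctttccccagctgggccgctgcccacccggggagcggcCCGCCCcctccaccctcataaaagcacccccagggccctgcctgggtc
The window holds 3 GC boxes, at positions -113, -102 and -48 from the start, and none of TGANTCA (AP-1), GAGGAA (PU.1) or TATAAA. The letters GGGCGG occur in 45% of the 35116 RefSeq promoter windows of 300 bases (250 before and 50 after a start), so a match is common.

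**Figure D3:**
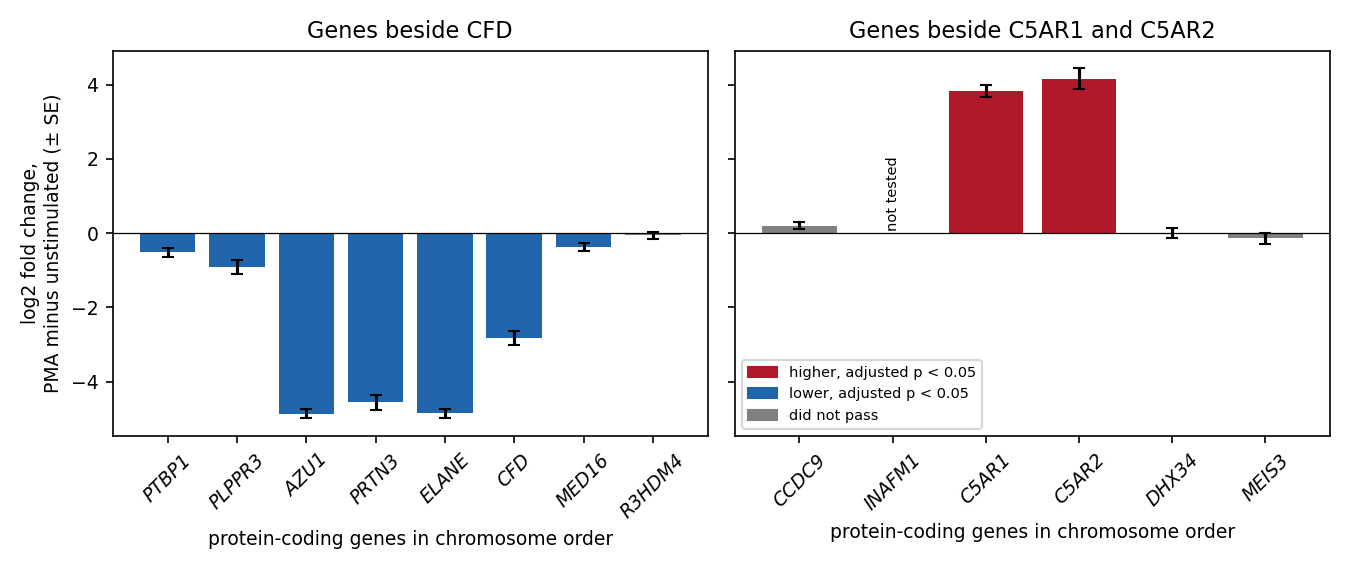
Log2 fold change, PMA minus unstimulated, ± SE (n = 3 each) for protein-coding genes in chromosome order around CFD (left) and around C5AR1 and C5AR2 (right), both on chromosome 19. AZU1, PRTN3, ELANE and CFD lie between -4.86 and -2.82, and C5AR1 and C5AR2 are higher by 3.82 and 4.16 beside DHX34 at 0.00.

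CFP, properdin, stabilises the alternative pathway convertase. It read 6.68, 6.09 and 7.95 on the PMA arrays, against 7.95, 8.23 and 8.23 on the unstimulated arrays. PMA replicate 3 lay 1.57 above the mean of the other PMA arrays, level with unstimulated replicate 1 to within 0.0028. The change of -1.23 ± 0.41 did not pass (limma, Benjamini-Hochberg adjusted p = 0.062). Without PMA replicate 3 it fell by 1.76 (adjusted p = 0.000278), and with any other single array left out it did not pass (adjusted p 0.0894 to 0.182). PMA replicate 3 was the lowest of the PMA arrays for C3, CD59 and C5AR1 and the highest for the other 7 genes. Its monocyte and macrophage markers averaged 10.82, against 10.91 and 10.75 on the other PMA arrays; their part in the result was not tested.

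CFB, the gene of the factor that CFD cleaves, did not pass. It read 5.48, 5.29 and 5.67 with PMA and 5.31, 5.28 and 5.67 without, below the array median on all 6 arrays. The difference was 0.06 ± 0.14, with a 95% interval of -0.28 to 0.40 (limma adjusted p = 0.821). The gene has 3 probe sets, which gave 0.04, 0.07 and 0.06.

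CD59 is a lipid-anchored surface protein that stops the membrane attack complex from forming a pore in the cell that carries it. It read 10.26, 9.99 and 9.44 on the PMA arrays, against 6.68, 6.86 and 6.78 on the unstimulated arrays. The nearest arrays of the groups were 2.59 apart, and the unstimulated arrays lay within a narrow range. The mean was 9.90 ± 0.42 with PMA and 6.77 ± 0.09 without (SD, n = 3 each). CD59 rose by 3.12 ± 0.19 on the log2 scale, or 8.72-fold (limma, Benjamini-Hochberg adjusted p = 3.34e-05), and by 2.94 to 3.35 with any array left out.

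C5AR1, the G protein-coupled receptor for the anaphylatoxin of C5, had the highest rise of the 10 genes. It read 10.09, 9.57 and 9.54 on the PMA arrays, against 5.89, 6.0 and 5.83 on the unstimulated arrays. All 3 unstimulated arrays lay below their array medians and all 3 PMA arrays far above theirs, with 3.53 between the nearest arrays of the groups. The mean was 9.73 ± 0.31 with PMA and 5.91 ± 0.09 without (SD, n = 3 each). The rise of 3.82 ± 0.16, or 14.2-fold, passed at an adjusted p of 5.63e-06 (limma, Benjamini-Hochberg), and was 3.64 to 3.92 with any array left out. A larger change was seen for 0.413% of genes. Because the unstimulated values are low, where RMA compresses differences, the fold is uncertain.

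C5AR2, a second receptor for the same ligand that signals little through G proteins, is the next protein-coding gene on chromosome 19 and rose as well. It read 10.57, 10.71 and 10.08 on the PMA arrays, against 5.65, 6.60 and 6.62 on the unstimulated arrays, a rise of 4.16 ± 0.28 (limma adjusted p = 4.64e-05). Its value on unstimulated replicate 1 was below the array median, so the size of the rise is uncertain. The closest measured genes outside the pair, named after their values were seen, did not pass: CCDC9 at 0.19 ± 0.09 (adjusted p = 0.180) and DHX34 at 0.00 ± 0.14 (adjusted p = 0.987). The 250 bases before the most upstream annotated start of each receptor gene are shown because the neighbours rose together (RefSeq, GRCh38.p14, plus strand; C5AR1 at chr19:47309611-47309860 and C5AR2 at chr19:47331925-47332174). Capitals mark GAGGAA, the core letters of PU.1 sites, in C5AR1, where both matches are on the minus strand and read TTCCTC, and TGANTCA, the letters of AP-1 sites, and TATAAA in C5AR2.
C5AR1: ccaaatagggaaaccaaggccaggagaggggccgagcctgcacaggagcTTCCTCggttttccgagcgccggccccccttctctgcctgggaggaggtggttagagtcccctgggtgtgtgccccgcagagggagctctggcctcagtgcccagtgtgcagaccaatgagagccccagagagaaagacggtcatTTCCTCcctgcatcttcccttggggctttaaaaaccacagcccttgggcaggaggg
C5AR2: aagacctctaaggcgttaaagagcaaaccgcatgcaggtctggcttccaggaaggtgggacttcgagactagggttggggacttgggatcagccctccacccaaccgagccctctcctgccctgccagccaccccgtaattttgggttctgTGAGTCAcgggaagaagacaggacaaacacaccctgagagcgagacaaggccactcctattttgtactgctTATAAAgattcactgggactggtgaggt
The C5AR1 window holds GAGGAA letters at positions -201 and -56. The C5AR2 window holds TGAGTCA at -99 and TATAAA at -28, and its other annotated start has GAGGAA at -153. The letters TGANTCA occur in 7.71%, GAGGAA in 27.9% and TATAAA in 11.5% of all 35116 windows. Of the 8 member genes found in the promoter table, TGANTCA was present for CD59 and C3AR1 and GAGGAA for CFP and C5AR1, counting every annotated start. TATAAA was present for CFB and C3AR1, GGGCGG for C1QA, CFD and CD59, and TTNNGCAA (C/EBP) for C1QA, C1QB and CD59. A gene with several starts has several windows (CD59 has 4), so these counts are not comparable with the shares per window. These matches are descriptions of letters and not sites of binding.

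C3AR1, the receptor for the anaphylatoxin of C3, did not pass. It read 8.31, 7.51 and 8.81 on the PMA arrays, against 4.97, 7.54 and 7.89 on the unstimulated arrays. The groups overlapped, and unstimulated replicate 1 had an offset of -2.74 from the mean of the other unstimulated arrays. The difference was 1.41 ± 0.72 (limma, Benjamini-Hochberg adjusted p = 0.210), and its 95% interval ran from -0.27 to 3.08. Without unstimulated replicate 1 it was 0.49 (adjusted p = 0.370). The monocyte marker CD14 also stood low on that array, at 7.51 against 9.67 and 9.65 on the other unstimulated arrays. TYROBP, FCER1G, CSF1R, MSR1 and CD163 of the same list were also lowest there among unstimulated arrays. LYZ (12.76), CD68 (11.80) and SPI1 (9.86) were instead highest there. The part of these markers in the result was not tested. Whether the changes of C3AR1 and C5AR1 differ was not tested.

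**Figure D4:**
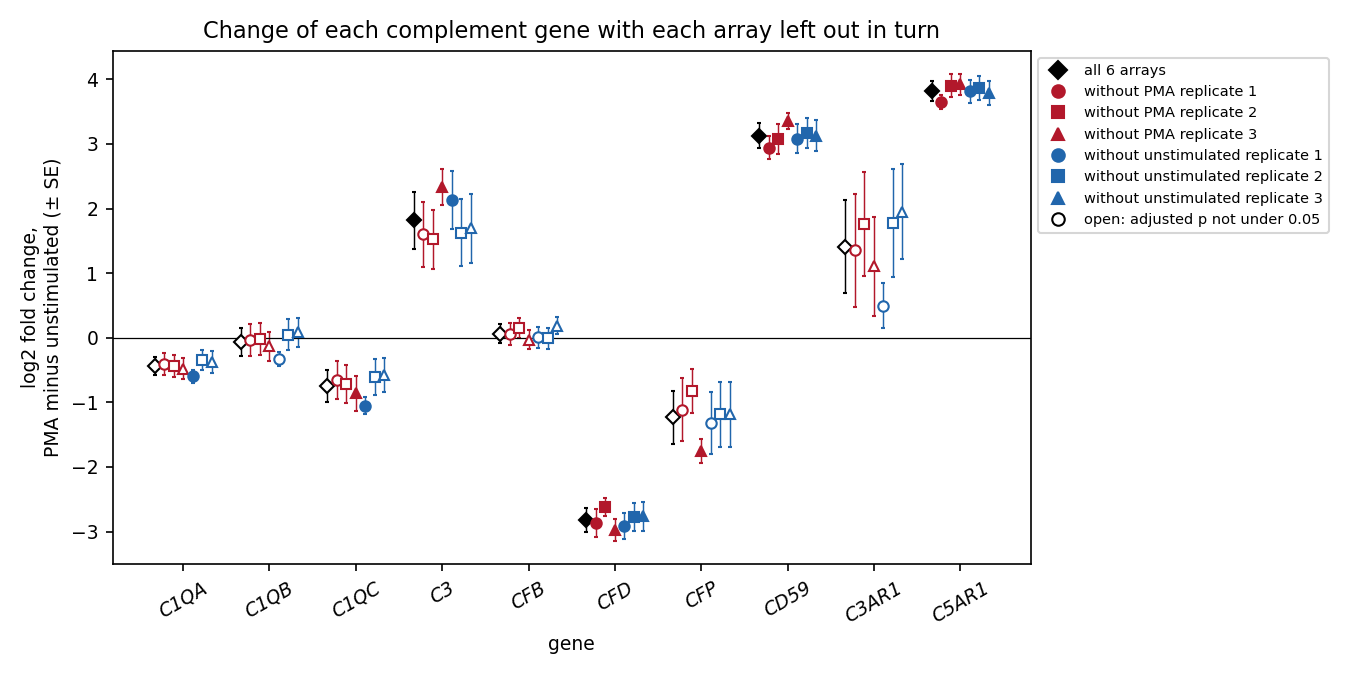
Log2 fold change ± SE, PMA minus unstimulated, for each gene with all 6 arrays and with each array left out in turn; open symbols did not pass an adjusted p of 0.05. C5AR1, CD59 and CFD keep their place, C3 loses its call without 4 of the arrays, and C3AR1 falls to 0.49 without unstimulated replicate 1.

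In the wider complement system, most of the genes that rose encode surface receptors, and the genes of soluble components mostly did not pass. Of 44 further complement genes measured, 7 rose and 3 fell (22.7% called, against 26.4% of all genes), with a median log2 fold change of -0.04 against -0.03 for all genes. Of the 44, 13 lay below the lower quartile on all 6 arrays, and none of these passed in limma (0 at an unadjusted p under 0.05). With dim genes left out the comparison with all genes turned round. Without the lowest 25% of genes, 9 of 24 were called (37.5%, against 33.8% of all genes). Without genes below the median, 8 of 13 were called (61.5%, against 39.5%). Both filters used the mean over all 6 arrays, so genes that are bright only with PMA can stay in. C5AR2, at a mean of 10.45 with PMA and 6.29 without, stayed in. The filters can raise these shares by themselves, and no conclusion is drawn from the turn. By role, as grouped here, 6 of 10 receptors rose and none fell (limma adjusted p), with a median of 1.21. Over all genes, 13.2% were higher. CR1, complement receptor 1, was counted with the membrane regulators and fell, so the receptor count depends on this grouping. Of 5 membrane regulators 1 rose and 1 fell. Of 12 classical and lectin pathway genes 1 fell, of 7 terminal pathway genes 1 fell, and of 10 soluble regulators none passed in limma (1 at an unadjusted p under 0.05).

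Among the receptors, the integrin chains of complement receptors 3 and 4, which bind cleaved C3 on particles, rose together. ITGAM, the alpha chain of receptor 3, read 11.14, 10.91 and 11.03 with PMA and 8.79, 9.11 and 9.15 without, a rise of 2.01 ± 0.12 (limma adjusted p = 3.17e-05). ITGAX, the alpha chain of receptor 4, read 11.31, 11.29 and 10.48 with PMA and 8.62, 9.75 and 9.63 without, a rise of 1.70 ± 0.33 (limma adjusted p = 0.00765). Their shared beta chain ITGB2 was 12.54, 12.31 and 12.58 with PMA and 11.44, 11.92 and 11.90 without, a smaller rise of 0.72 ± 0.15 (limma adjusted p = 0.00989). PMA and unstimulated arrays did not overlap for any of the 3 chains, as for 41.2% of all genes. VSIG4, a macrophage receptor for deposited C3, rose by 1.95 ± 0.44 (limma adjusted p = 0.0147). It read 8.84, 9.07 and 7.17 with PMA and 6.21, 6.53 and 6.50 without, and its call was lost without PMA replicate 1 (1.70, adjusted p = 0.0615) or unstimulated replicate 2 (2.00, adjusted p = 0.0516); without PMA replicate 3 it was 2.54. LRP1, an endocytic receptor that takes part in uptake of C1q-marked material, read 10.20, 9.92 and 9.94 with PMA and 7.08, 7.82 and 7.88 without, and rose by 2.42 ± 0.21 (limma adjusted p = 0.000172).

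The membrane regulators went different ways. CD55, which speeds the decay of C3 convertases, read 9.95, 9.92 and 9.80 with PMA and 8.50, 8.97 and 9.01 without, a rise of 1.06 ± 0.15 (limma adjusted p = 0.00148). CR1, which binds deposited C3 and helps to inactivate it, read 5.19, 5.05 and 4.40 with PMA and 6.42, 5.99 and 6.50 without, and fell by 1.43 ± 0.22 (adjusted p = 0.00271). Its PMA values were all below the array median, and 1 was below the lower quartile, so the size of the fall is uncertain. CD46, a cofactor for the cleavage of deposited C3, did not pass: it read 10.64 on each PMA array and 10.18, 10.80 and 10.84 on the unstimulated arrays, with a 95% interval of the difference of -0.36 to 0.44. CD59 and CD55, both lipid-anchored, were thus higher and CR1 lower in the same cells.

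Among soluble components, C1S, a protease of the C1 complex, fell by 1.56 ± 0.23 (limma adjusted p = 0.00192). It read 4.13, 4.60 and 4.28 with PMA and 5.38, 6.14 and 6.17 without, and lay below the array's lower quartile on 2 PMA arrays, so the size of the fall is uncertain. Its partner protease C1R, the neighbouring gene, stood at -0.21 ± 0.09 and did not pass (adjusted p = 0.135). C5, the precursor of the ligand of C5AR1 and C5AR2, read 7.37, 7.58 and 7.38 with PMA and 8.24, 8.31 and 8.61 without, and fell by 0.94 ± 0.12 (adjusted p = 0.00124). The regulators CFI and SERPING1 stood at -0.09 ± 0.09 and -0.06 ± 0.11 and did not pass, CFI below the lower quartile of all 6 arrays. C2, which forms the classical convertase, read 7.85, 7.43 and 8.58 with PMA and 7.24, 7.73 and 7.77 without, and its groups overlapped (0.37 ± 0.28, adjusted p = 0.413).

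**Figure D5:**
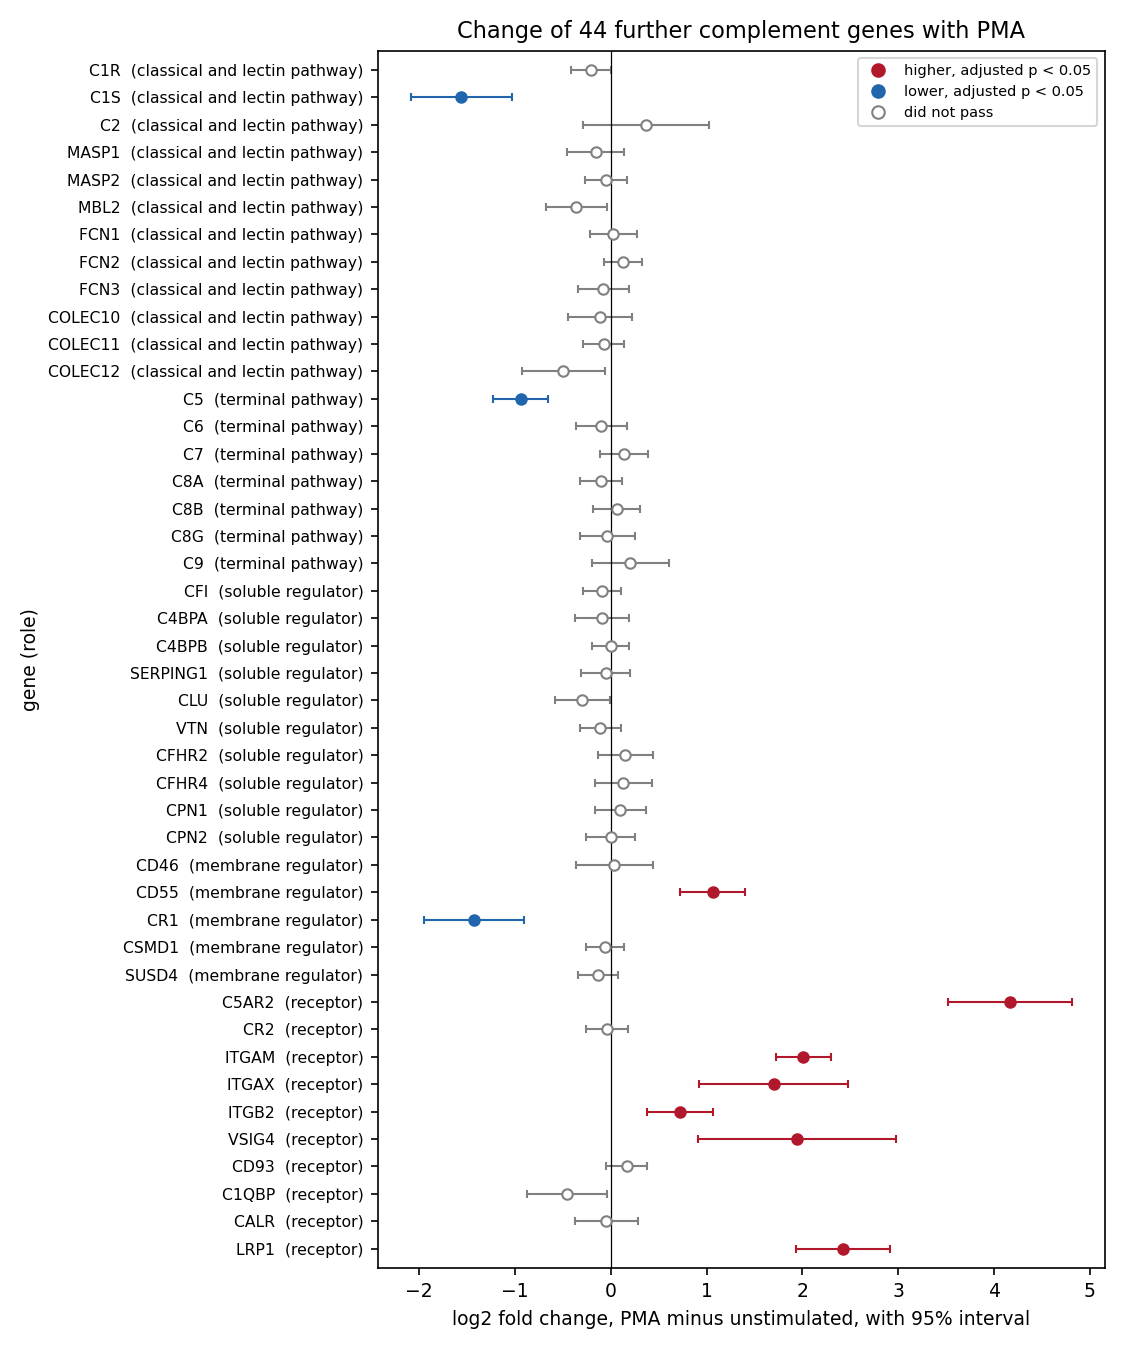
Log2 fold change, PMA minus unstimulated, with the unadjusted 95% interval (n = 3 each) for 44 further complement genes grouped by role. Filled points, which passed an adjusted p of 0.05, are mostly receptors at 0.72 to 4.16, while C1S, CR1 and C5 lie between -1.56 and -0.94.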

How the data were processed

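The authors deposited log2 values, 1 per probe set and array, for 6 arrays, with no replicates pooled. RMA and Partek were used, per the submitters' processing notes; no version is stated there. RMA subtracts background, equalises the arrays' distributions and combines probes, and it compresses differences near background.

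Of 33297 probe sets, 19460 carried a single symbol in the platform annotation (19429 matched to the RefSeq gene table, GRCh38.p14), 1754 carried several and 12083 were not named there. The brightest single-symbol probe set stood for each of 18417 genes. Groups came from the sample titles. PMA and unstimulated arrays (3 each) were compared by lmFit and eBayes of limma 3.58.1 (R 4.3.3), in a model of group alone with 7.71 degrees of freedom. P-values were adjusted by Benjamini-Hochberg across every gene, and 0.05 was the threshold. The fit was tested on simulated data. Precision is limited by the number of arrays.

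The 10 members and the lists were chosen with earlier results of these data known. Named were all members, every further complement gene past the threshold, selected others by name, markers, and a few flanking genes noted as such. Some listed genes are not reported here. Alternatives covered normalization, dim genes, probe sets, variance model, a replicate block, thresholds and each array left out. Promoter sequences are from RefSeq. Figures were drawn with matplotlib 3.10.9.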

Additional observations from a re-analysis of the deposited data

How the results depend on the processing

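C5AR1, CD59 and CFD kept their direction and their call under all 17 alternative fits and scalings run for each (log2 fold changes 3.64 to 3.92, 2.94 to 3.35 and -3.07 to -2.62), and at both other thresholds, an adjusted p of 0.01 and a change of at least 2-fold. Over the same fits, C3 kept its call in 13 of 17, C3AR1 never passed (0.19 to 1.95), and VSIG4 was the only further complement gene named as called that lost its call where it was tested. At an adjusted p of 0.01, C3 and VSIG4 were also lost, and C5 and ITGB2 changed by less than 2-fold. The number of the 10 genes called was 4, with 26.4% of all genes called. With each array left out it was 3 to 6, with 18% to 27.4% of all genes called. It was 7 with array quality weights (33.9% of all genes) and 7 with the replicate block (25.7% of all genes), where C1QA, C1QC and CFP were also lower. It was 8 (34.3% of all genes) when both arrays that stood apart were left out, where C1QB was lower too. That alternative was chosen after seeing the data. CFP also passed with genes below the median left out (adjusted p = 0.0463), and C1QA with a trended, robust variance (adjusted p = 0.049). For the replicate block, deviations of same-numbered arrays correlated at 0.18, -0.02 and 0.05, 3 of 6 arrays correlated best with their own number, and the labels give no pairing. The cause of these differences was not tested.

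Near-zero differences turned sign. C1QB was 0.0071 with quantile normalization repeated, 0.020 with arrays centred on their medians and 0.012 with cyclic loess, and ran from -0.32 to 0.083 with each array left out. CFB was -0.052 with array quality weights, -0.089 without both arrays that stood apart, and -0.033 to 0.19 with each array left out. With genes below the median left out, C1QA, C1QB, C1QC and CFB were not tested. Over all genes, 4854 were called, 2824 at an adjusted p of 0.01 and 1542 with at least a 2-fold change. The share higher was 50.1%, 61.8% with arrays centred on their medians and 61.7% among changes of at least 2-fold. The calls among the further complement genes were 10, and 8 to 12 over the alternatives. The 12 came without both arrays that stood apart (27.3%, against 34.3% of all genes). With at least a 2-fold change there were 8 (18.2%, against 8.37% of all genes). Background itself was not measured. Values below the array median, on some or all arrays, limit C1QA, C1QB, C1QC, CFB, C1S and CR1. They also limit the unstimulated values of C5AR1, and C5AR2 and C3AR1 on unstimulated replicate 1.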

Other observations

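Other genes beside complement receptors and regulators were read in chromosome order and named after their values were seen. On chromosome 16, ITGAD, an integrin alpha chain gene next to ITGAM and ITGAX, read 6.65, 6.34 and 6.84 with PMA and 5.56, 5.91 and 5.78 without. It rose by 0.86 ± 0.15 (limma, Benjamini-Hochberg adjusted p = 0.00479), so all 3 neighbouring alpha chains were higher. On chromosome 1, the regulators of complement stand in the order CD55, CR2, CR1, CD46. CD55 was higher and CR1 lower with PMA, while CR2, the receptor for C3 fragments on B cells, lay below the lower quartile of all 6 arrays. Beyond CD46, CD34, a progenitor marker, did not pass (0.09 ± 0.10, limma adjusted p = 0.581), and PLXNA2, a semaphorin receptor, rose by 0.52 ± 0.11 (adjusted p = 0.0113).

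The nearly identical genes C4A and C4B share probe sets that name both, so their signals cannot be told apart. Those probe sets read 5.63, 5.68 and 5.74 with PMA and 5.60, 6.0 and 5.84 without, and did not pass (-0.13 ± 0.12, limma adjusted p = 0.544 over every probe set). PDGFRA, a fibroblast marker, was the widest change among the markers of other cell types. It read 8.47, 9.01 and 7.41 with PMA and 5.38, 5.16 and 4.91 without, while the collagen genes COL1A1, COL1A2 and COL3A1 on the same list did not pass.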
